A study of Homo sapiens with 6 samples.

Results

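The numbered zinc finger genes of chromosome 19 (symbols ZNF plus a number) were followed across 6 human neuroblastoma cell lines. Of the 19170 loci of the table, 217 lay on chromosome 19 and carried at least 1 such symbol, and the rule used their name and position and none of their values. They held 223 different symbols, because 44 of the 217 loci carried several gene names and 12 symbols had a pair of loci. A locus was tested if it reached 1 FPKM (fragments per kilobase of locus, scaled to the size of the library) in at least 2 lines, which 194 of the 217 did. The other 23 stayed below that, 12 of them reaching 1 FPKM in 1 line only and 11 in none. Of the 223 symbols, 221 were found in GENCODE 44 and 220 of these were protein coding genes there. The set is one of zinc finger genes by name, and the protein domains were not looked up.

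Ribosome-depleted total RNA from the lines was sequenced, with 1 library per line. The MYCN-amplified lines were BE(2)-C, CHP134, Kelly and SK-N-DZ, and the MYCN-non-amplified lines were SK-N-AS and SY5Y. No treatment was given in the labels, and Kelly and CHP134 were grown in RPMI medium and the others in DMEM. BE(2)-C is a clone of SK-N-BE(2) and SY5Y a subclone of SK-N-SH, so that each of them stands for 1 clone, and a line has no replicate library.

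Most of these genes encode KRAB zinc finger proteins. In such a protein an array of C2H2 zinc fingers reads a DNA sequence, often one inside a retrotransposon, and the KRAB domain recruits the corepressor TRIM28, which brings in the histone methyltransferase SETDB1, HP1 proteins and DNA methylation. The genes multiplied by local duplication in mammals and stand side by side in clusters on chromosome 19, where neighbours are close paralogs and their own bodies carry heterochromatin marks laid down in part through ZNF274. The clusters were described in windows of chromosome 19 by the midpoint of each locus in hg19, namely 9 to 13 Mb (window 1), 19 to 25 Mb (window 2), 35 to 38 Mb (window 3), 43 to 46 Mb (window 4), 52 to 54 Mb (window 5) and 56 to 59 Mb (window 6).

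The promoters are shown first because neighbouring members were low together in single lines. RefSeq (GRCh38.p14) promoters, 250 bases before to 50 bases after the RefSeq gene start, were found for 197 of the 223 symbols. Each printed one was matched exactly and once to GRCh37. The GENCODE models of ZNF730 (chr19:23258012) and ZNF254 (chr19:24216207) start earlier, and their printed sequences lie inside those models. Sequences at such earlier starts are not shown. Capitals mark CG dinucleotides, the sites of DNA methylation. The set below comes from window 2, with ZNF93 (chr19:20011505-20011804, plus strand), ZNF257 (chr19:22235036-22235335, plus strand), ZNF492 (chr19:22816876-22817175, plus strand) and ZNF730 (chr19:23299577-23299876, plus strand), all low in SK-N-AS, and their neighbour ZNF254 (chr19:24269739-24270038, plus strand), which was low in no line.
ZNF93: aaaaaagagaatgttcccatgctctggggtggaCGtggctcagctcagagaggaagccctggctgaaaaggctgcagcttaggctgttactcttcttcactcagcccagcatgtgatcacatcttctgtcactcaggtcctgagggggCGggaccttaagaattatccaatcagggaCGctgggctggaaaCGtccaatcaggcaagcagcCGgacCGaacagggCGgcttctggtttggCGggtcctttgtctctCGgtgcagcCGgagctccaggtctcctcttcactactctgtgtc
ZNF257: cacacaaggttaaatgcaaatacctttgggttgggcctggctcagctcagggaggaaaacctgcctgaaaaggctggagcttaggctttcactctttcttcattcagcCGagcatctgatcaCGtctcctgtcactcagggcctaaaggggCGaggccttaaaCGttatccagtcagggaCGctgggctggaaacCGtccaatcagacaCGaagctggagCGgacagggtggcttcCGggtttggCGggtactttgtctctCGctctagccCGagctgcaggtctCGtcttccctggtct
ZNF492: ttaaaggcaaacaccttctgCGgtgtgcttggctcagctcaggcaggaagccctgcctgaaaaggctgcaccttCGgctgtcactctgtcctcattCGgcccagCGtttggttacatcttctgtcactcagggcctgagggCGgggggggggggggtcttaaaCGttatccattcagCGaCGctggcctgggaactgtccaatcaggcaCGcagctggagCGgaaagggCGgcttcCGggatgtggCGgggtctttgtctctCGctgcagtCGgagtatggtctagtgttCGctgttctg
ZNF730: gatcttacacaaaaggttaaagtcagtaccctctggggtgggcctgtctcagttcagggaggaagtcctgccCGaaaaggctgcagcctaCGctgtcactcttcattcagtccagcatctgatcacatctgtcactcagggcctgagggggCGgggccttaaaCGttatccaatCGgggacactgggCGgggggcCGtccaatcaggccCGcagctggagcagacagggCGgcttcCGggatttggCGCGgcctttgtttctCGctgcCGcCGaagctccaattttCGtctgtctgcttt
ZNF254: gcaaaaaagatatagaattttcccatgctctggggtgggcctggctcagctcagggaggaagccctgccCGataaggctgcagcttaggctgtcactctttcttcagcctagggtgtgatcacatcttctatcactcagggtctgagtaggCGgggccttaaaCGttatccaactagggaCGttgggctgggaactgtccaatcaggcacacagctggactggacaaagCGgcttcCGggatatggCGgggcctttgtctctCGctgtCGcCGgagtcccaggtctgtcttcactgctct

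The set from window 5 shows ZNF613 (chr19:52430475-52430774, plus strand), low in CHP134, beside ZNF616 (chr19:52643142-52643441, minus strand), low in no line. It also shows ZNF160 (chr19:53606626-53606925, minus strand), low in BE(2)-C, and ZNF347 (chr19:53662257-53662556, minus strand), low in BE(2)-C and SK-N-AS, beside ZNF765 (chr19:53898152-53898451, plus strand), low in no line. The GENCODE models of ZNF613 (chr19:52430400) and ZNF765 (chr19:53893046) also start earlier, and their printed sequences lie inside those models.
ZNF613: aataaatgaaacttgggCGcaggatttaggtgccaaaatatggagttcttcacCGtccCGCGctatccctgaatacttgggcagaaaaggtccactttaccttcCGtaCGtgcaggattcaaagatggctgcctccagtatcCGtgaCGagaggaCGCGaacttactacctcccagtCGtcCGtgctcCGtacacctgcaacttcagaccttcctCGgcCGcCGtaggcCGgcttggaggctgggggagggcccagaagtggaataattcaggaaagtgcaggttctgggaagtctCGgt
ZNF616: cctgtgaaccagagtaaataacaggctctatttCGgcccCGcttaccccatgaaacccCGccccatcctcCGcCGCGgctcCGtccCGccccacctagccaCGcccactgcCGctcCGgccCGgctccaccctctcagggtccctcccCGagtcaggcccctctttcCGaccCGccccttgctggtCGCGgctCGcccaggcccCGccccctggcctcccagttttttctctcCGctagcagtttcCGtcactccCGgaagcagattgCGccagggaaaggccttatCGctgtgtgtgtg
ZNF160: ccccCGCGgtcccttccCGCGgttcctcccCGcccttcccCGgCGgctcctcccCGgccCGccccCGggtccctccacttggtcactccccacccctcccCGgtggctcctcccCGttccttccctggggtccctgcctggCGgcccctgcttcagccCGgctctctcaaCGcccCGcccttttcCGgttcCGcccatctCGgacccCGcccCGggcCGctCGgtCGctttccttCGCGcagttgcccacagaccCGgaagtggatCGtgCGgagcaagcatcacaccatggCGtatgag
ZNF347: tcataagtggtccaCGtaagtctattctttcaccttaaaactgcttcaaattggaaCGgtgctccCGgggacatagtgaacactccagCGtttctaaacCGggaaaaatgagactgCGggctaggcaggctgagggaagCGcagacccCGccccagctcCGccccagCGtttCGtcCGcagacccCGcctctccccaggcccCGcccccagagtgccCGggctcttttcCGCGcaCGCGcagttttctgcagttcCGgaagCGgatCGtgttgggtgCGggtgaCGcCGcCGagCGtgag
ZNF765: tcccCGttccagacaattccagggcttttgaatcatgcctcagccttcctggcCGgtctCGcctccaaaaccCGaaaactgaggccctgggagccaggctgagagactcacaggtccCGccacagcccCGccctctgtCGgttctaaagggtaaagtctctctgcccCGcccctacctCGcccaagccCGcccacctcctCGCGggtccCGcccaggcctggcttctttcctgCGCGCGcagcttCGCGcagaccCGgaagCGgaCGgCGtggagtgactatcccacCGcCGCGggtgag

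The promoters of a window shared features of their sequence. The 197 member promoters held a median of 21 CG, against 14 in the 35116 promoters of the whole table, and 93.4% of them held at least 10, against 56.4%. Window 2 had the fewest, with a median of 10 CG over 25 promoters, and window 5 the most, with 25 over 29. All 25 promoters of window 2 held the letters CCAATCAG on either strand, which contain the CCAAT box that NF-Y binds, and so did 20 of 33 in window 1, against 3.97% of all promoters. The letters TTCCCAGA stood in 13 of 22 promoters of window 3 and 13 of 18 of window 4, against 2.75% of all. CCGGAAGT, the core of ETS family sites, stood in 24 of 49 promoters of window 6, against 4.14% of all. CCCCGCCC, a GC box, stood in 20 of 29 promoters of window 5, against 22.8% of all. The E-box CACGTG, the letters that MYC proteins prefer, stood in 8 of 197 member promoters (4.06%), against 7.26% of all. These words were picked after the sequences had been looked at, both strands were searched, no word contains another, and a match is a description of shared letters in related genes. Within window 2 the 9 promoters of members low in SK-N-AS and the 13 of tested members not low there all held CCAATCAG and had the same median of 10 CG, while CCCCGCCC stood in 5 of the 9 and 3 of the 13.

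The labels were checked first. MYCN stood at 571 FPKM in BE(2)-C, 505 in CHP134, 774 in Kelly and 184 in SK-N-DZ, against 0.921 in SY5Y and 0.208 in SK-N-AS. Of 13 neuroblastoma markers, 11 to 13 reached 1 FPKM in each line. SK-N-AS stood apart by markers of other cell types: PTPRC, the only blood marker of 4 found in the table, was at 108 FPKM there, against 0.00469 to 0.0658 in the other lines, 2 of 3 epithelial markers found, KRT8 and KRT18, whose assembled spans overlap, reached 1 FPKM there and 0 did elsewhere, and 5 of 6 fibroblast markers did, summing to 893 FPKM, against 5 in SY5Y and 1 or 2 in the others with sums of 3.53 to 85.7. The part of these markers in the SK-N-AS values below was not tested. The table gives no read counts, so that the depth behind a value is unknown, and a small nuclear RNA locus, RNU4, took 22.6% to 54.6% of the summed FPKM. In bulk RNA, fewer cells with a transcript and less transcript per cell cannot be told apart, and neither can a missing gene copy and a silent gene.

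The members had a lower median level than all tested loci, and a smaller share of them was at 1 FPKM in every line. The level of a locus was taken as its median over the lines. The median of these levels was 3.29 FPKM over the tested members, against 7.79 over all 12870 tested loci. Of the 194 members, 120 (61.9%) were at 1 FPKM or more in every line. The share was 73.7% for all tested loci and 81.1% for the numbered zinc finger loci of other chromosomes. The median range over the lines was 1.46 on the scale of log2(FPKM + 0.5), against 1.41 over all tested loci. Ranges above 3 were found for 17 of 194 members (8.76%), against 13% of all tested loci. The members below had the smallest range of their windows. ZNF562 in window 1 lay between 14.6 and 17.7 FPKM in all lines, ZNF382 in window 3 between 2.77 and 4.79 FPKM, and ZNF17 in window 6 between 1.93 and 2.85 FPKM. ZNF90 in window 2 stood far above the rest of that window, with 151 to 287 FPKM. In window 3 ZNF146, which has fingers but no KRAB domain, had 49.6 to 82.5 FPKM.

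A member was called low in a line when its value was at least 8 times below the median of the other 5 lines and that median was at least 1 FPKM. By this rule 33 of 194 members were low somewhere, 23 in 1 line, 7 in 2 and 3 in 3. SK-N-AS had the most, 20 of 194 (10.3%), against 2.99% of all tested loci. BE(2)-C followed with 10 (5.15%, against 3.1%) and CHP134 with 8 (4.12%, against 2.85%). The shares were below background in Kelly with 3 (1.55%, against 1.87%), SK-N-DZ with 3 (1.55%, against 2.94%) and SY5Y with 2 (1.03%, against 1.34%). With 1 library per line these counts carry no test. The member nearest the rule in SK-N-AS was ZNF439 inside it, 8.87 times below the median of the others, and ZNF816 outside it, 7.83 times below with 0.379 FPKM. Numbered zinc finger loci of other chromosomes (212 tested) were low in 3.3% of cases in SK-N-AS, 2.83% in BE(2)-C and 1.42% in CHP134. The other named loci of the 6 windows (164 tested) were low in 4.27% of cases in SK-N-AS, 5.49% in BE(2)-C and 3.66% in CHP134, so that in BE(2)-C and CHP134 the share among these neighbours was close to that of the members.

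The lines also differed in how often they ranked lowest or highest. BE(2)-C had the lowest value of the 6 lines at 80 of 194 members (41.2%), against 21.4% of all tested loci and 85 of 629 (13.5%) of the other named loci of chromosome 19. In SK-N-DZ the shares lay the other way, with 29 members lowest (14.9%), against 23.6% of all loci and 41.2% of the other named loci of the chromosome. SK-N-AS was lowest at 40 members (20.6%, against 16.8%), CHP134 at 30 (15.5%, against 12.7%), Kelly at 8 (4.12%, against 12.2%) and SY5Y at 6 (3.09%, against 11.9%). Kelly had the highest value at 57 members (29.4%, against 18.8%), SY5Y at 46 (23.7%, against 14.3%), SK-N-AS at 43 (22.2%, against 23.9%), CHP134 at 23 (11.9%, against 22.1%), SK-N-DZ at 21 (10.8%, against 9.58%) and BE(2)-C at 4 (2.06%, against 11.3%).

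**Figure D1:**
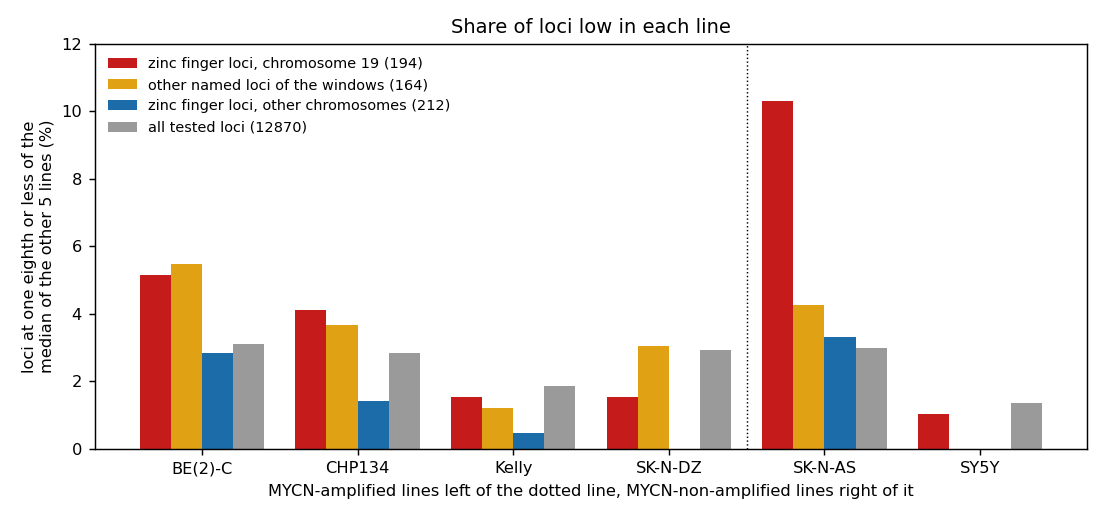
Bars give the percentage of tested loci (y axis) at least 8 times below the median of the other 5 lines, for each line (x axis) and for 4 sets of loci. The SK-N-AS bar of the chromosome 19 zinc finger loci is the tallest at 10.3%, against 2.99% for all tested loci, and the BE(2)-C bar of 5.15% is close to that of the neighbouring loci, 5.49%.

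The low members lay together. In SK-N-AS, 14 of the 20 low members had an adjacent low member, against 22 of the 174 that were not low. In BE(2)-C this held for 5 of 10, against 12 of 184, and in CHP134 for 3 of 8, against 12 of 186. In Kelly, SK-N-DZ and SY5Y no low member had a low neighbour. Members that share an assembled span can share reads, as 63 of the 217 did, and neighbouring paralogs can share reads too. Reads were not counted by strand in this library type, so that overlapping genes of opposite strands cannot be told apart.

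**Figure D2:**
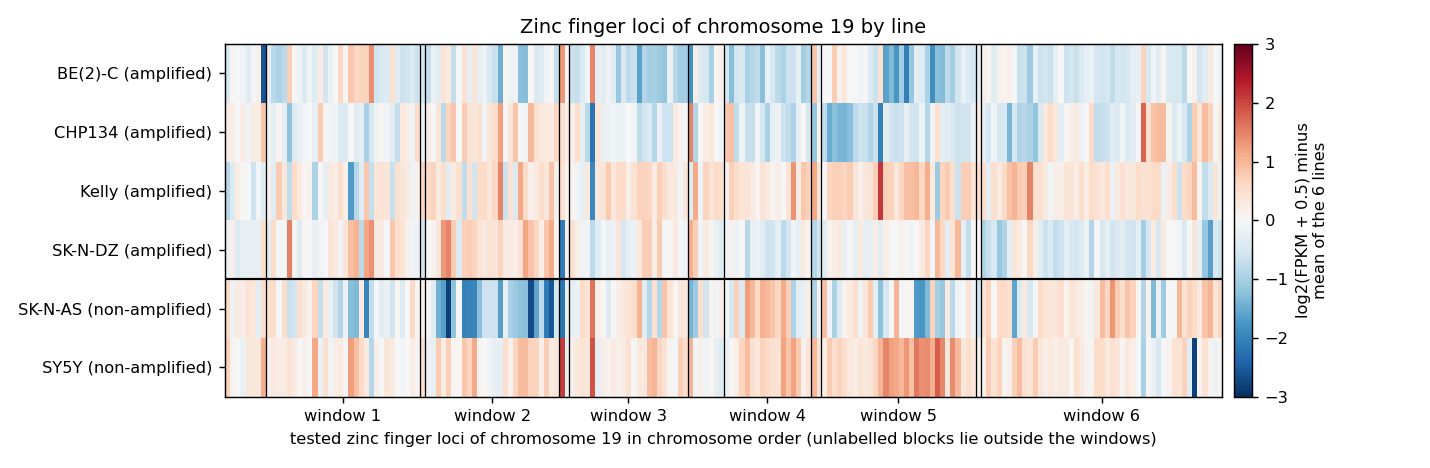
Each column is 1 of the 194 tested loci in chromosome order and each row a line, with the MYCN-amplified lines above the MYCN-non-amplified ones. Colour gives log2(FPKM + 0.5) minus the locus mean over the 6 lines, and the blocks of blue are window 2 in SK-N-AS, the start of window 5 in CHP134 and the middle of window 5 in BE(2)-C.

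Window 2, the primate-expanded cluster next to the centromere, was the stretch in which SK-N-AS had the most low members. SK-N-AS, the line with the PTPRC, keratin and collagen transcripts, was low at 9 of 26 tested members and had the lowest value of the 6 lines at 19 of 26 (73.1%), against 16.8% of all tested loci. Outside window 2 it was low at 11 of 168, against 2.99% of all tested loci. The median FPKM of the window was 1.06 in SK-N-AS, against 2.68 to 4.80 in the other lines, and the median of log2(FPKM + 0.5) relative to the mean of the lines was -1.24 in SK-N-AS, against -0.23 in BE(2)-C and 0.31 to 0.46 in the other 4. Over all tested loci the same median lay between -0.15 and 0.09 in every line. Of all 30 members of the window, 14 were at 1 FPKM or more in SK-N-AS, against 23 to 28 in the other lines, and 8 were below 0.1 FPKM there, against 0 to 4.

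The genes concerned include repressors of retrotransposons. ZNF93, which binds and represses L1 elements, was at 0.117 FPKM in SK-N-AS, against 4.72 in BE(2)-C, 6.32 in CHP134, 2.90 in Kelly, 11.3 in SK-N-DZ and 6.55 in SY5Y, which is 53.8 times below the median of the other 5. ZNF91, which represses SVA elements, was at 0.852 FPKM in SK-N-AS, against 2.52 to 5.95 in the others, and did not meet the low rule. ZNF730 was at 0.0117 FPKM in SK-N-AS, against 2.76 in BE(2)-C, 5.97 in CHP134, 3.18 in Kelly, 5.49 in SK-N-DZ and 4.82 in SY5Y. None of these 3 genes overlapped between SK-N-AS and the other lines.

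A run of 3 adjacent members, ZNF486, ZNF737 and ZNF626 (chr19:20188803-20844402), was low in SK-N-AS. ZNF486 was at 0.0743 FPKM there, against 0.884 to 3.68 in the others, ZNF737 at 0.224, against 1.89 to 4.4, and ZNF626 was listed at 0, against 0.786 to 3.75. Kelly had the lowest value of the other 5 lines for ZNF486 and ZNF626. ZNF681 and ZNF726 lay next to each other as well, with 0.117 FPKM in SK-N-AS, against 1.95 to 4.24, for ZNF681, and 0.190 FPKM, against 3.61 to 8.21, for ZNF726.

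The other run, ZNF257, ZNF492 and ZNF730 (chr19:22235266-23332963), was shared in part with BE(2)-C. ZNF257 had 0.0106 FPKM in SK-N-AS and 0.00099 in BE(2)-C, against 0.651 in CHP134, 2.19 in Kelly, 1.10 in SK-N-DZ and 1.81 in SY5Y. ZNF492 had 0.0175 FPKM in SK-N-AS and 0.0094 in BE(2)-C, against 0.621 in CHP134, 1.32 in Kelly, 2.30 in SK-N-DZ and 1.91 in SY5Y. ZNF676, which lies between them and did not reach the level for testing, had 0.0129 FPKM in SK-N-AS, 0.00797 in BE(2)-C and 0.00631 in SY5Y, against 0.320 in CHP134, 0.590 in Kelly and 0.587 in SK-N-DZ. SY5Y thus kept ZNF257 and ZNF492 and had almost no transcript of the gene between them.

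Kept members lay among the low ones. ZNF254 was at 3.62 FPKM in SK-N-AS, against 3.06 to 8.75 in the others, the merged locus of ZNF430 and ZNF714 at 7.86, against 11 to 18.9, and ZNF101 at the edge of the window at 5.42, against 2.92 to 8.10. ZNF90, which shares its assembled span with ZNF486, was at 203 FPKM in SK-N-AS, against 151 to 287. Of the 10 other named loci inside the cluster SK-N-AS was low at 2. One was the pseudogene ZNF826P, listed at 0 in SK-N-AS and Kelly and at 0.0940 FPKM in BE(2)-C, against 1.67 to 3.10 in the other 3. The pseudogene ZNF724P was at 5.14 FPKM in SK-N-AS, against 6.41 to 13.3. With SK-N-AS left out, BE(2)-C became the lowest line of the window at 18 of 26 members, against 25.7% of all tested loci, and remained low only at ZNF257 and ZNF492.

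**Figure D3:**
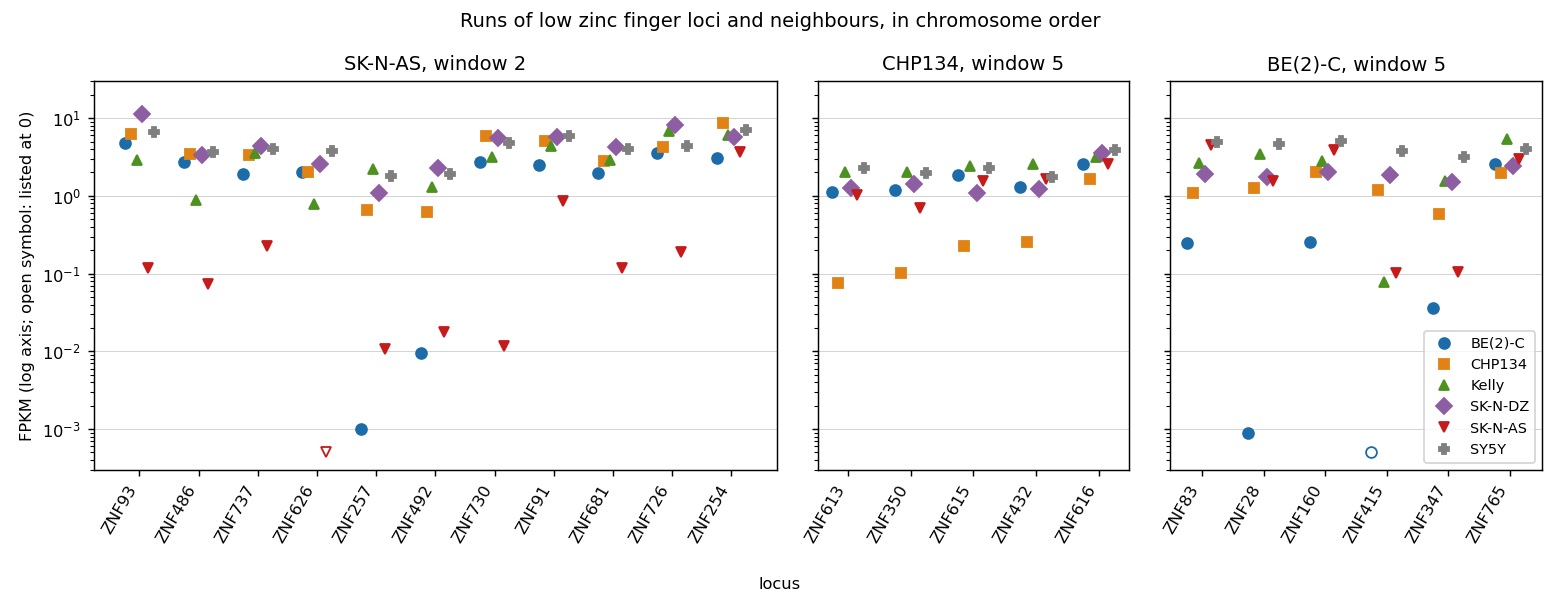
Points give the FPKM of each line (log axis, open symbols listed at 0) for members of the runs and some neighbours, in chromosome order. In window 2 SK-N-AS lies below every other line at ZNF93, ZNF486, ZNF737, ZNF626, ZNF730, ZNF91, ZNF681 and ZNF726, in the first part of window 5 CHP134 lies apart at ZNF613, ZNF350, ZNF615 and ZNF432, and in the second part BE(2)-C does at ZNF83, ZNF28 and ZNF160.

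Window 5 fell into parts in which different lines were lowest. The border at 53 Mb was set after the values had been seen. Of the 13 tested members before it, CHP134 had the lowest value at 11 (84.6%), against 12.7% of all tested loci, and was low at 4. Of the 17 from it onward, BE(2)-C had the lowest value at 11 (64.7%), against 21.4%, and was low at 6. Without SK-N-AS, CHP134 was still lowest at 11 of 13 and BE(2)-C at 13 of 17. The median FPKM before the border was 0.495 in CHP134, against 1.34 to 2.55 in the other lines, and from the border on it was 0.656 in BE(2)-C, against 1.26 to 4.66.

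In CHP134 the run ZNF613, ZNF350 and ZNF615 (chr19:52359055-52533080) was low. ZNF613 was at 0.0760 FPKM in CHP134, against 1.12 in BE(2)-C, 2.03 in Kelly, 2.28 in SY5Y, 1.24 in SK-N-DZ and 1.01 in SK-N-AS. ZNF350, a repressor also known as ZBRK1 that binds BRCA1, was at 0.10 FPKM in CHP134, against 1.18 in BE(2)-C, 2.05 in Kelly, 1.99 in SY5Y, 1.41 in SK-N-DZ and 0.699 in SK-N-AS. ZNF615 was at 0.227 FPKM, against 1.10 to 2.46. These loci share 1 assembled span with the merged locus of ZNF577, ZNF614 and ZNF649, which was at 2.24 FPKM in CHP134, against 2.83 to 10.5. ZNF432, just outside the rule at 6.6 times below the median, was at 0.252 FPKM, against 1.22 to 2.55.

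Farther along, ZNF616 was at 1.65 FPKM in CHP134, against 2.56 to 3.88 in the others, and ZNF766 at 3.19, against 4.29 to 7.02. ZNF880 was low again, at 0.143 FPKM in CHP134, against 3.09 in BE(2)-C, 10.8 in Kelly, 4.79 in SY5Y, 1.59 in SK-N-DZ and 0.613 in SK-N-AS. CHP134 was thus the lowest line of this stretch with a loss of varying depth, and Kelly the highest for ZNF880.

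In BE(2)-C the low members from 53 Mb on were ZNF83, ZNF28, ZNF160, ZNF415, ZNF347 and 1 of the loci of ZNF525. ZNF28 was at 0.000895 FPKM in BE(2)-C, against 1.26 in CHP134, 3.43 in Kelly, 4.66 in SY5Y, 1.72 in SK-N-DZ and 1.56 in SK-N-AS. A merged locus of ZNF28 and ZNF468 in the same span was at 4.13 FPKM in BE(2)-C, against 6.34 to 18.3, and the reads of these loci cannot be told apart. ZNF83 was at 0.246 FPKM in BE(2)-C, against 1.08 to 4.99, and for both genes BE(2)-C lay below every other line.

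The adjacent genes ZNF160, ZNF415 and ZNF347 (chr19:53568141-53662322) formed the BE(2)-C run. ZNF160 was at 0.258 FPKM in BE(2)-C, against 2.01 in CHP134, 2.79 in Kelly, 5.12 in SY5Y, 2.04 in SK-N-DZ and 3.84 in SK-N-AS. ZNF415 was listed at 0 in BE(2)-C and was low in Kelly (0.0781 FPKM) and SK-N-AS (0.103) too, against 1.2 in CHP134, 1.88 in SK-N-DZ and 3.76 in SY5Y. ZNF347 had 0.0361 FPKM in BE(2)-C and 0.106 in SK-N-AS, against 0.590 in CHP134, 1.57 in Kelly, 1.53 in SK-N-DZ and 3.12 in SY5Y. Only BE(2)-C was low at all 3, while SK-N-AS kept ZNF160.

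SK-N-AS had its own low pair in the same stretch. The 2 loci of ZNF320, which share a span, were at 0.139 and 0.192 FPKM in SK-N-AS, against 0.872 to 5.73 and 1.25 to 5.48 in the other lines. SY5Y had kept this part of the cluster best, with the highest value of the 6 lines at 11 of 17 members, against 14.3% of all tested loci. Past the run, ZNF765 was at 2.58 FPKM in BE(2)-C, against 1.96 to 5.44, and ZNF813, the member of the window that varied least, was at 0.972, against 1.38 to 2.36. Among the 4 other named loci of the window, AC010487.1 was listed at 0 in BE(2)-C and SK-N-AS, against 2.61 to 81.2 FPKM in the rest.

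**Figure D4:**
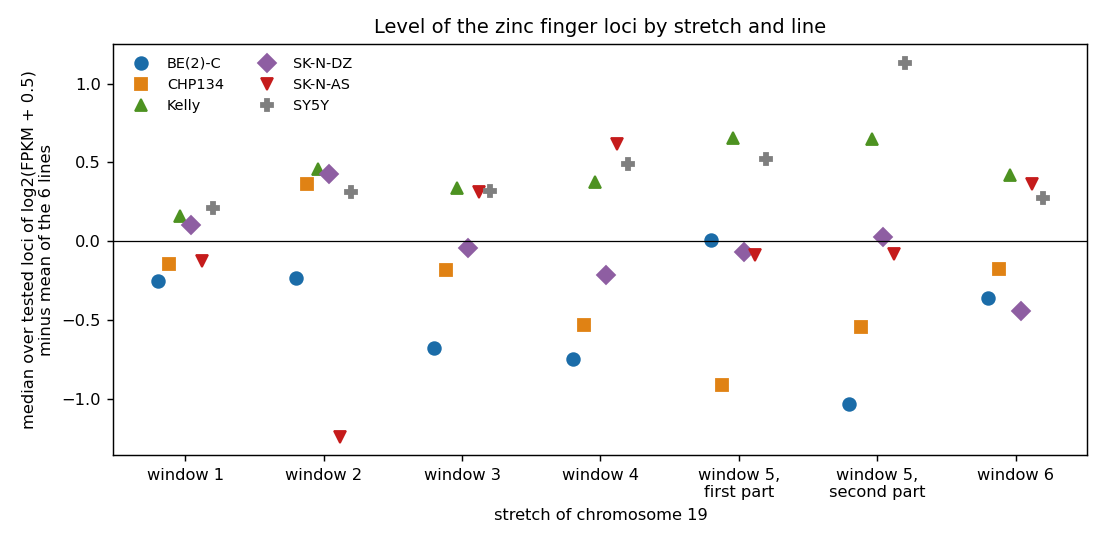
Points give, for each stretch (x axis) and line, the median over tested members of log2(FPKM + 0.5) minus the locus mean over the 6 lines. SK-N-AS is lowest in window 2 at -1.24, CHP134 in the first part of window 5 at -0.91 and BE(2)-C in the second part at -1.03, where SY5Y is highest at 1.13.

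Windows 3 and 4 showed a shallower pattern in BE(2)-C, without low members among the loci placed inside them by their midpoint. It had the lowest value of the lines at 17 of 23 members of window 3 and 11 of 17 of window 4, against 21.4% of all tested loci, and at the same 17 and 11 counts with SK-N-AS left out, yet it was low by the 8-fold rule at none of them. Its median relative to the mean of the lines was -0.68 in window 3 and -0.75 in window 4. The same median in BE(2)-C was -0.22 over numbered zinc finger loci of other chromosomes and -0.09 over all tested loci. For window 3 the absence of low members depends on where the window ends. ZNF793, whose locus starts inside window 3 but has its midpoint past the end, was low in BE(2)-C. The value of ZNF793 was 0.0297 FPKM there, against a median of 3.20 in the other lines. ZNF850 was at 1.32 FPKM in BE(2)-C, against 2.78 to 10.9 in the others, and ZNF420, a KRAB protein known as a regulator of p53, at 3.54, against 5.53 to 16.3.

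The gene of window 3 with the widest range was ZNF792. It was at 0.0278 FPKM in CHP134 and 0.141 in Kelly, against 6.24 in BE(2)-C, 8.66 in SY5Y, 0.915 in SK-N-DZ and 6.93 in SK-N-AS. The nearby ZNF30 was at 0.968 FPKM in CHP134 and 2.70 in Kelly, against 1.91 to 2.99 in the others.

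In window 1 the members low in SK-N-AS or Kelly lay within chr19:11959541-12192380, and ZNF560, low in CHP134, at chr19:9575640-9609283. SK-N-AS was low at 3 of 30 tested members, Kelly and CHP134 at 1 each, and BE(2)-C, SK-N-DZ and SY5Y at none. ZNF439 was at 0.149 FPKM in Kelly and 0.360 in SK-N-AS, against 3.19 in BE(2)-C, 1.60 in CHP134, 3.42 in SK-N-DZ and 4.54 in SY5Y. The adjacent ZNF69 was at 0.0676 FPKM in SK-N-AS, against 0.288 to 2.37, and Kelly with 0.288 was just outside the rule at 5.88 times below. ZNF844 was listed at 0 in SK-N-AS, against 0.480 to 3.91 FPKM, and ZNF560 was listed at 0 in CHP134, against 0.174 to 2.75. ZNF788 was kept in BE(2)-C and SK-N-DZ, at 1.91 and 1.89 FPKM, and lay between 0.00903 and 0.158 in the other 4.

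Window 6 had 47 tested members, the most of the windows, and few of them were low. Of its 55 members in all, 41 to 47 were at 1 FPKM or more in each line. SK-N-DZ had the lowest value at 18 of 47 (38.3%, against 23.6% of all tested loci), with a median of -0.44 relative to the mean of the lines, and BE(2)-C at 15 of 47 (31.9%, against 21.4%), with a median of -0.36. Low members were ZNF671 in 3 lines, ZNF544 in SY5Y and 1 locus of ZNF470 in CHP134. ZNF671, whose promoter is often methylated in carcinomas, was at 0.0719 FPKM in SY5Y, 0.0552 in SK-N-DZ and 0.110 in SK-N-AS, against 1.28 in BE(2)-C, 3.23 in CHP134 and 1.04 in Kelly. The neighbouring ZNF154, not tested, was at 3.16 FPKM in CHP134, against 0.137 to 0.220 in the other 5 lines. ZNF544 was at 0.0975 FPKM in SY5Y, against 4.12 to 7.48 in the others, which do not overlap, and a small locus of the same gene was at 1.53 FPKM in SY5Y, against 0.302 to 0.888. ZNF274, which recruits SETDB1 to zinc finger genes, was at 1.42 to 5.37 FPKM and low in no line, and ZNF584 ranged from 1.0 FPKM in SK-N-DZ to 8.88 in SK-N-AS.

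Outside the windows 4 members were low. ZNF558 was at 0.0487 FPKM in BE(2)-C, against 5.41 in CHP134, 2.02 in Kelly, 6.52 in SY5Y, 4.32 in SK-N-DZ and 4.31 in SK-N-AS. ZNF536, a brain-expressed repressor of neuronal differentiation that has no KRAB domain, was at 0.0257 FPKM in SK-N-DZ and 0.0054 in SK-N-AS, against 5.11 in BE(2)-C, 2.69 in CHP134, 2.62 in Kelly and 9.28 in SY5Y. ZNF793 had 0.0297 FPKM in BE(2)-C and 0.197 in SK-N-AS, against 4.6 in CHP134, 0.893 in Kelly, 3.37 in SK-N-DZ and 3.20 in SY5Y. ZNF114 split the lines evenly, with 0.0134 FPKM in CHP134, 0.135 in SK-N-DZ and 0.0883 in SK-N-AS, against 1.54 in BE(2)-C, 2.07 in Kelly and 1.81 in SY5Y. The imprinted ZNF331 was kept in all lines at 2.10 to 5.12 FPKM.

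Members high in 1 line were few. A value of at least 1 FPKM and at least 8 times the median of the others was found for 8 members, with 4 in SK-N-DZ (2.06%, against 1.57% of all tested loci), 4 in SY5Y (2.06%, against 2.96%), 3 in BE(2)-C (1.55%, against 1.67%), 3 in Kelly (1.55%, against 1.88%), 2 in CHP134 (1.03%, against 2.09%) and 0 in SK-N-AS (against 3.73%). ZNF233 was at 2.79 FPKM in Kelly, against 0.179 to 2.46 in the others. The high calls of ZNF671, ZNF415 and ZNF114 are the other side of their low calls.

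The study's own comparison set the 4 MYCN-amplified lines against the 2 MYCN-non-amplified lines, fitted with limma over all 12870 loci. No member was called higher or lower by a log2 fold change beyond 1 in size with an adjusted p below 0.05, against 0.14% of all loci called higher (18) and 0.365% lower (47). At an unadjusted p below 0.05, 1 member was higher and 14 were lower, against 5.48% and 9.46% of all loci. The median log2 fold change was -0.23 over the members and -0.09 over all loci. It was -0.17 over the 212 tested numbered zinc finger loci of other chromosomes. Of these 62.7% had a negative value, close to the 63.9% of the members. Both MYCN-non-amplified lines together make a group of 2, and SK-N-AS is 1 of them. Since every line is 1 library, the p-values measure the spread between these lines only.

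The median log2 fold change was 0.64 in window 2, where 24 of 26 members had a positive value, and -0.70 in window 4, where 14 of 17 (82.4%) had a negative one, against 55.6% of all loci. It was -0.49 in window 5, where 26 of 30 (86.7%) were negative, -0.44 in window 6, where 39 of 47 (83.0%) were, -0.36 in window 3, where 17 of 23 (73.9%) were, and -0.02 in window 1, where 15 of 30 were. In window 2 SK-N-AS was lowest at 19 of 26 members, and there the amplified lines cannot lie below it. That 0 of 26 lay lower in all 4 amplified lines than in SK-N-AS, against 29.5% of all loci, largely restates this ranking. In the same window 5 (19.2%) lay lower in all 4 than in SY5Y, against 25.1%.

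In window 4 no member passed the test, and the median relative to the mean of the lines was -0.75 in BE(2)-C, -0.53 in CHP134, -0.21 in SK-N-DZ and 0.38 in Kelly, against 0.49 in SY5Y and 0.62 in SK-N-AS. All 4 MYCN-amplified lines lay below both MYCN-non-amplified lines at 9 of 17 members, against 16.4% of all loci, and at 11 of 17 when compared with SY5Y alone, against 25.1%. ZNF226 was at 4.43 FPKM in BE(2)-C, 5.63 in CHP134, 9.14 in Kelly and 4.98 in SK-N-DZ, against 21.3 in SY5Y and 20.0 in SK-N-AS. Its log2 fold change of -1.74 (SE 0.35) had the smallest p of the members and an adjusted p of 0.112. ZNF45 averaged 4.83 ± 2.67 FPKM in the MYCN-amplified lines (SD, n = 4), against 13 in SY5Y and 16.5 in SK-N-AS, with a limma log2 fold change of -1.62 (SE 0.45, adjusted p 0.188). The groups did not overlap for these genes, and neither passed the test.

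Their neighbours had the same order of values. ZNF224, a repressor first described at the aldolase A gene, was at 1.88 to 5.24 FPKM in the MYCN-amplified lines, against 6.44 in SY5Y and 8.70 in SK-N-AS, with a limma log2 fold change of -1.16 (SE 0.43, adjusted p 0.279). ZNF227 was at 6.52 to 15.5 FPKM, against 20.7 in SY5Y and 19.2 in SK-N-AS, and the merged locus of ZNF222, ZNF223 and ZNF284 at 3.03 to 10.8, against 13 in SY5Y and 17.0 in SK-N-AS. Kelly held the highest amplified value at each of these loci. Further along the cluster the groups overlapped, as for ZNF233, ZNF235, ZNF180 and the merged locus of ZNF229 and ZNF285, which was at 3.10 to 12.3 FPKM in the MYCN-amplified lines, against 7.62 in SY5Y and 5.73 in SK-N-AS.

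**Figure D5:**
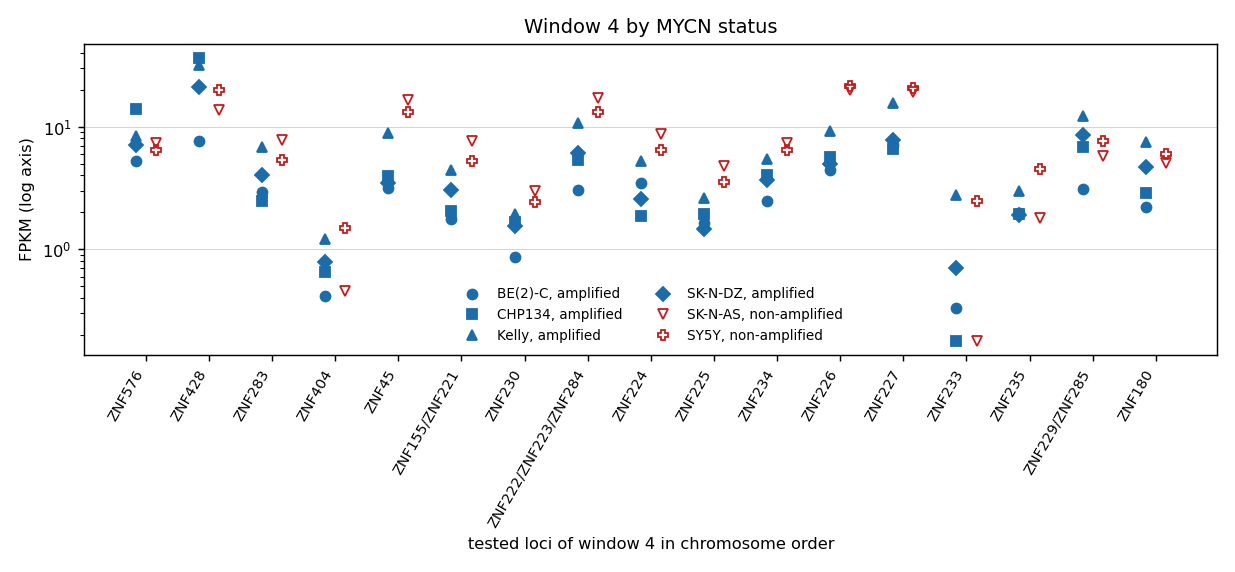
Points give the FPKM (log axis) of the 17 tested loci of window 4, MYCN-amplified lines as filled blue symbols left of the MYCN-non-amplified lines as open red ones. At 9 of 17 loci, ZNF45 and ZNF226 among them, every blue symbol lies below both red ones.

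Elsewhere the smallest p belonged to ZNF550 in window 6 among the lower members. It was at 1.16 to 2.00 FPKM in the MYCN-amplified lines, against 3.52 in SY5Y and 6.57 in SK-N-AS, with a limma log2 fold change of -1.37 (SE 0.41, adjusted p 0.212). Among the higher ones, ZNF586 was at 3.06 to 6.63 FPKM, against 2.92 in SY5Y and 1.05 in SK-N-AS, with a log2 fold change of 1.15 (SE 0.47, adjusted p 0.318). The locus of ZNF653, merged with ECSIT and the neuronal RNA-binding gene ELAVL3, was at 34.6 to 63.4 FPKM, against 32.2 in SY5Y and 22.2 in SK-N-AS (log2 fold change 0.69, SE 0.33, adjusted p 0.378). ZNF726 had a log2 fold change of 1.70 (SE 0.76, adjusted p 0.351) with overlapping groups, its 4.32 FPKM in SY5Y lying within the amplified values of 3.61 to 8.21. Over all members 5 lay higher and 35 lower in all 4 amplified lines than in both others, against 10.5% and 16.4% of all loci.

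The partners through which KRAB proteins act were kept in nearly all cases, with 27 or 28 of 28 at 1 FPKM or more in each line. Of the 28 corepressor and DNA methylation genes tested, 0 were called in either direction, with a median log2 fold change of 0.10. At an unadjusted limma p below 0.05, 2 of the 28 were higher and 0 lower, against 5.48% and 9.46% of all loci. TRIM28 was at 28.8 FPKM in BE(2)-C, 120 in CHP134, 155 in Kelly and 72.7 in SK-N-DZ, against 84.7 in SY5Y and 93.8 in SK-N-AS. Its groups overlapped, with BE(2)-C lowest and Kelly highest. UHRF1, which guides DNA methylation maintenance, averaged 22.0 ± 4.47 FPKM in the MYCN-amplified lines (SD, n = 4), against 12.8 in the others (limma log2 fold change 0.75, SE 0.29, adjusted p 0.288). ATF7IP, the partner of SETDB1, averaged 13.7 ± 3.16, against 7.63 (limma 0.77, SE 0.31, adjusted p 0.313). HDAC2 averaged 70.6 ± 19.2, against 39.5 with overlapping groups (limma 0.92, SE 0.42, adjusted p 0.362). FAM208A, the TASOR subunit of the HUSH silencing complex, averaged 8.97 ± 4.02, against 17.5 (limma -1.04, SE 0.46, adjusted p 0.353). DNMT3A, a de novo DNA methyltransferase, was low in Kelly alone, at 0.0434 FPKM, against 0.924 to 2.39 in the others.

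Of 12 chromosome 19 zinc finger genes with other names, 0 were called as well, and 0 had an unadjusted p below 0.05. Of these, ZFP30 and ZFP112 lie in merged loci that are also members, and ZFP30, ZBTB45 and MZF1 lie outside the windows. ZFP28 had the smallest p, with 0.229 to 1.81 FPKM in the MYCN-amplified lines, against 2.99 in SY5Y and 2.88 in SK-N-AS (log2 fold change -1.18, SE 0.55). PEG3, a paternally expressed imprinted gene, was at 0.00878 FPKM in BE(2)-C and 0.00488 in SK-N-AS, against 4.79 in CHP134, 1.0 in Kelly, 6.81 in SK-N-DZ and 1.62 in SY5Y. BE(2)-C and SK-N-AS, the lines with the most low members, were also both low at ZNF257, ZNF492, ZNF793, ZNF347 and, together with Kelly, ZNF415. The share of all tested loci low in both lines was not counted.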

How the data were processed

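RNA-seq values of 6 cell lines, 1 library each, were used. Per the labels and methods, the authors aligned 100 base paired reads of unstranded, ribosome-depleted libraries to hg19 with STAR and used Gencode V18, TMM and edgeR, but their description does not cover the assembled loci of the deposited table. Its unit is not named and was read as deposited FPKM. A listed 0 may be a failed estimate, which was not tested. EMC10 was listed at 0 in CHP134, against 16.1 to 52.9 FPKM in the other lines.

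Named loci at 1 FPKM or more in at least 2 lines entered limma on the scale log2(FPKM + 0.5), version 3.58.1 (R 4.3.3, eBayes with a trend), with Benjamini-Hochberg adjustment over all 12870 loci. The groups follow the MYCN status of the line each label names. Starts in the table count from 0 and were raised by 1. Low and high calls used an 8-fold rule. Both steps were tested on simulated data. The 217 members, the windows and the gene lists were chosen with earlier results of these data known. Genes named are, per window, the 3 widest and the 1 narrowest in range, members of runs of 3 or more, members low in 2 or more lines, the smallest p-values, TRIM28 and MYCN. Neighbours (such as ZNF91, ZNF254, ZNF432, ZNF616, ZNF676 and ZNF765), overlapping loci and the other members low in 1 line were chosen after their values were seen. Alternatives were another pseudocount, level, fold, scaling, fit without trend, and leaving out a line.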

Additional observations from a re-analysis of the deposited data

Results flagged for a closer look

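A sample far from the others in its group was looked for in 48 results, and 2 were found, where chance gives about 1 in 20 groups. In window 2 the level of BE(2)-C among the MYCN-amplified lines, -0.23, lay apart from 0.36 in CHP134, 0.46 in Kelly and 0.43 in SK-N-DZ (gap over range 0.860, above the critical value of Dixon's test for 4 samples). For ZNF235, Kelly with 2.97 FPKM lay apart from 1.98 in BE(2)-C, 1.95 in CHP134 and 1.92 in SK-N-DZ (0.930).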

How the results depend on the processing

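No member was called higher or lower in the MYCN-amplified lines under any of the 14 alternatives. The count over all loci, 18 higher and 47 lower, was 8 and 7 with a smaller pseudocount, 6 and 5 with at least 5 FPKM, and 85 lower without the trend. Leaving out 1 line gave 5 to 18 higher and 2 to 44 lower, with the fewest without SK-N-AS, and the line left alone in its group is then assumed to vary like the others. Without CHP134 there were 7 higher and 17 lower, without Kelly 7 and 11, without SK-N-DZ 6 and 9, and without SY5Y 11 and 3. The cause of these shifts was not tested. Of 553 fold changes of named members under an alternative, 54 lay on the other side of 0 and 0 passed the threshold.

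Low members numbered 18 in BE(2)-C, 6 in Kelly, 5 in SK-N-DZ and 31 in SK-N-AS at 4-fold, and 5 in CHP134, 1 in SY5Y and 13 in SK-N-AS at 16-fold. With a median of at least 2 FPKM they were 4 in BE(2)-C (1.93%), 2 in CHP134 (2.03%), 1 in SY5Y (0.901%), 1 in SK-N-DZ (2.02%) and 12 in SK-N-AS (1.98%). With median-ratio size factors SY5Y had 1 (1.39%). Leaving out 1 line gave 6 to 10 in BE(2)-C, 4 to 9 in CHP134, 2 to 4 in Kelly, 1 to 3 in SK-N-DZ, 1 to 3 in SY5Y and 17 to 20 in SK-N-AS. Without SY5Y, BE(2)-C had 6 (3.46%) and CHP134 4 (2.94%), and without Kelly CHP134 had 5 (3.89%) and SK-N-DZ 1 (4.26%). Without BE(2)-C, SK-N-DZ had 1 (3.89%) and SY5Y 1 (1.82%), and without CHP134 SY5Y had 1 (1.55%). Without SK-N-AS SY5Y had 3, against 241 of all 12870 loci. SK-N-AS had the most low members under each of these alternatives that kept it. Without it BE(2)-C had the most, 10, against 460 of all 12870 loci.

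Percentages in brackets are here the share of all tested loci high in that line under the same alternative. High members numbered 5 in BE(2)-C (3.39%), 6 in Kelly (3.33%), 11 in SY5Y (5.30%) and 2 in SK-N-AS (6.50%) at 4-fold. At 16-fold they numbered 0 in BE(2)-C (0.730%), 1 in CHP134 (1.07%), 0 in Kelly (0.987%), 0 in SK-N-DZ (0.684%) and 1 in SY5Y (1.48%). With a level of at least 2 FPKM they were 0 in BE(2)-C (1.30%), 1 in CHP134 (1.70%), 1 in SK-N-DZ (1.10%) and 2 in SY5Y (2.32%). With size factors Kelly had 1 (1.77%). Leaving out 1 line gave 1 to 3 in BE(2)-C, 0 to 2 in CHP134, 0 to 3 in Kelly, 1 to 4 in SK-N-DZ, 1 to 5 in SY5Y and 0 to 1 in SK-N-AS. Each line changed at least 1 of these small counts by over 1.5 times. Without SK-N-AS there were 0 in CHP134 (1.62%), 0 in Kelly (1.37%), 2 in SK-N-DZ (1.13%) and 2 in SY5Y (3.15%).

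The window 2 level of SK-N-AS, -1.24, was -1.64 with the smaller pseudocount and -0.70 with a pseudocount of 2, by construction of the log scale. Chosen after seeing the data, leaving out SK-N-AS gave 11 members of window 4 with the amplified lines below SY5Y. No paired analysis was possible because the labels give no replicate numbers and each line has 1 library. Count models were not run because the table holds no counts. A line has no replicate, so that its low calls carry no error, and values far below 0.1 FPKM have an unknown depth.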
